A study of Mus musculus with 22 samples.

Results

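The integrins and the focal adhesion linkers are 40 genes here, chosen by symbol: 18 integrin alpha subunits, 8 integrin beta subunits and 14 cytoplasmic linkers. All 40 were found among the 32544 symbols counted, in every one of 22 libraries. An integrin is a cell surface receptor made of 1 alpha and 1 beta subunit, which binds matrix proteins such as collagen, laminin and fibronectin or counter-receptors on other cells. Inside the cell talins and kindlins bind the beta tail and switch the receptor on, the ILK, PINCH and parvin complex and vinculin tie it to actin, and FAK, PYK2 and paxillin carry the signal onward. Epithelial cells are known for laminin-binding integrins at their basal side, and macrophages for the leukocyte integrins that share the beta subunit Itgb2 (CD18).

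The libraries came from an RNA sequencing study of mouse cells grown with or without their co-culture partner. The groups were alveolar macrophages co-cultured with early lesion cells (2 libraries) and the macrophages of that experiment alone (2), macrophages co-cultured with primary tumor cells (3) and the macrophages of that experiment alone (3), early lesion cells co-cultured with macrophages (3) and alone (3), and primary tumor cells co-cultured with macrophages (3) and alone (3). Macrophages came from the lungs of wildtype FVB mice. Early lesion and primary tumor cells were mammary cells of MMTV-HER2 mice, in which the mammary tumor virus promoter drives the HER2 oncogene mainly in mammary epithelium. All cells were primary and grew on Matrigel, a laminin-rich basement membrane gel that is itself an integrin substrate, in medium with horse serum, hydrocortisone, insulin and EGF, and co-cultures ran for 7 days before the cell types were sorted. The sources used here do not give the sort gate, the length of mono-culture, the age of the mice or any pooling.

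Libraries held 19701436 to 43725724 counts. In the 6 macrophage libraries of the primary tumor experiment, mitochondrially encoded genes took 65.7 to 78.6% of counts, against 2.86 to 3.53% in the other 16, and Grip2 took a further 1.85 to 12.9%. Grip2 also took 1.08 to 7.38% in the primary tumor cell libraries, against 0.0165 to 0.0739% in all libraries of the early lesion experiment. All 14 macrophage markers reached 1 CPM (CPM, the count scaled to library size) in every macrophage group, and all 12 epithelial markers did so in every mammary group. Of the 14, 7 and 6 also did so in early lesion cells with macrophages and alone, and 8 and 4 in primary tumor cells. Cd14 was higher in primary tumor cells (505 CPM co-cultured, 380 CPM alone) than in the macrophages of that experiment (64.0 and 70.9 CPM). In early lesion cells Cd14 had 325 and 209 CPM, against 297 and 150 CPM in the macrophages. Fibroblast markers summed to 928 to 3020 CPM in early lesion libraries, highest in co-cultured replicate 1, and to 297 to 527 CPM in primary tumor libraries. Epithelial markers summed to 376 to 441 CPM in macrophages with early lesion cells and 173 to 200 CPM in those alone, and to 250 to 286 CPM in macrophages with primary tumor cells and 50.8 to 63.1 CPM in those alone. Much of this was Krt19 and Cdh1, at 218 and 129 CPM with early lesion cells and 120 and 49.4 CPM in those alone. Epcam and Krt8 had 8.24 and 7.26 CPM there in co-culture and 1.21 and 0.0583 CPM alone. With primary tumor cells Krt19 had 198 CPM. The labels call the replicates biological, and p-values measure the spread between these libraries. In such bulk samples fewer cells of a type and less RNA per cell cannot be told apart.

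Each change is given on the log2 scale ± its standard error. Each adjusted p is a Benjamini-Hochberg value over every gene in the fit, from the quasi-likelihood test of edgeR, and 0.05 is the threshold for a call. A level is the CPM of a library, or the CPM per kb of exon where genes are set beside each other. Carry-over candidates are genes whose mean CPM was at least 5 times higher in the co-culture partner than in the cells under test, since partner RNA in the sorted cells could raise them.

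Macrophages and mammary cells expressed largely different integrin sets in mono-culture. In macrophages of the early lesion experiment Itgb2 took 74.6 ± 0.189% of the summed beta subunit level per kb, and in those of the primary tumor experiment 78.3 ± 1.41%. In early lesion cells Itgb1, the partner of most matrix-binding alpha subunits, took 56.4 ± 0.941%, and in primary tumor cells 55.2 ± 1.32%, with Itgb4, the hemidesmosome subunit that pairs with Itga6, next at 20.7 ± 0.341 and 19.6 ± 2.90%. The highest alpha subunit of macrophages was Itgax (CD11c), an alveolar macrophage surface marker, at 42.7 ± 0.0282 and 45.3 ± 1.73% of the summed alpha level in the 2 experiments. In early lesion cells the laminin receptor subunits Itga3 and Itga6 took 30.7 ± 1.63 and 30.3 ± 1.31%, shares that overlapped between libraries, and in primary tumor cells Itga6 led at 38.7 ± 0.946% over Itga3 at 27.6 ± 3.21% (mean ± SD, n = 2 for macrophages of the early lesion experiment and 3 for the other groups).

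The heat map of levels shows the division. The share of members called, 87.5 and 87.2% in the 2 experiments, was not far above that of all genes and was not tested against it. Macrophages alone differed from early lesion cells alone in 35 of the 40 members, 12 higher and 23 lower, beside 77.8% of all 15696 genes tested (37.0% higher and 40.7% lower), and the members' median was -1.41 against -0.06 over all genes. Against primary tumor cells alone 34 of 39 members tested differed, 15 higher and 19 lower, beside 78.9% of all genes (36.7% higher and 42.3% lower), with a median of -0.97 against -0.14 over all genes (both member medians are the same with genes of 3 counts or fewer at their bound). Cell type, tissue and genotype differ together in these comparisons and cannot be told apart. In the primary tumor experiment the mitochondrial share of counts goes with them, at 65.7, 72.7 and 69.6% in macrophages alone and 2.86, 3.52 and 3.06% in tumor cells alone. The same mono-culture libraries serve as the controls of the co-culture comparisons.

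**Figure D1:**
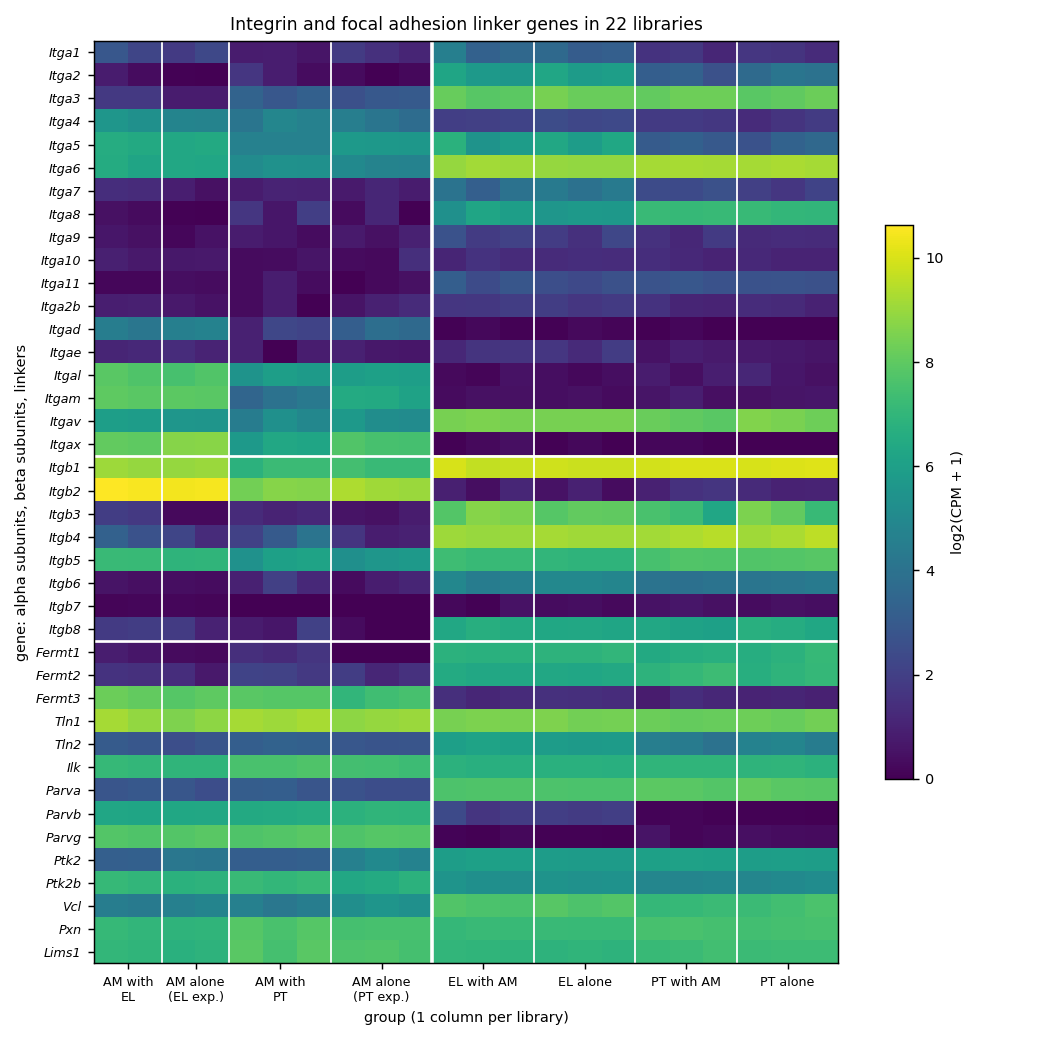
Level of each of the 40 genes, as log2(CPM + 1), in all 22 libraries; columns are libraries grouped by culture, rows are genes ordered as alpha subunits, beta subunits and linkers, and white lines part the groups. Itgb2, Itgax, Itgam, Itgal, Fermt3, Parvb and Parvg are brighter in the 10 macrophage columns than in the 12 mammary columns, and Itga3, Itgb3, Itgb4 and Fermt1 the other way round. Itgam is dimmer in macrophages with primary tumor cells (10.2 to 18.6 CPM) than in the other macrophage columns.

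The leukocyte integrin genes made up the macrophage set. Itgb2 had 1389 and 1439 CPM in macrophages of the early lesion experiment and 0.427, 0.985 and 0.277 CPM in early lesion cells (11.18 ± 0.27, edgeR quasi-likelihood adjusted p = 2.12e-07). In the primary tumor experiment it had 643, 554 and 515 CPM in macrophages and 1.38, 1.02 and 1.08 CPM in tumor cells (9.08 ± 0.18). The groups were far apart in every library. Its alpha partners Itgax, Itgam (CD11b, the complement receptor), Itgal (CD11a, of LFA-1) and Itgad (CD11d) lie on mouse chromosome 7 (mm10, GENCODE annotation), at 128129547-128150657, 128062640-128118491, 127296260-127335138 and 128154376-128223816, all on the plus strand. Itgax had 0 counts in all 3 primary tumor libraries, so that its level of 214, 182 and 181 CPM in macrophages was at least 4926-fold higher than the floor of 3 counts over that group. Itgam changed by 9.54 ± 0.10 against early lesion cells and 7.54 ± 0.20 against primary tumor cells, and Itgal by 9.54 ± 0.15 and 6.55 ± 0.28. Itga4, whose integrins bind VCAM1 and fibronectin, was higher as well, by 2.66 ± 0.10 and 3.21 ± 0.30. Gm49368, a gene model not among the counted symbols, shares 68.7% of the exon bases of Itgam.

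The promoters of Itgam, Itgax, Itga5 and Vcl are shown as 4 of the 8 members that fell in macrophages grown with primary tumor cells, as described after the linkers. The RefSeq table of GRCm38.p6 held promoters for 27 of the 40 members, each from 250 bases before the annotated start to 50 after it. They were searched on both strands for the PU.1 core GAGGAA (PU.1 is a myeloid transcription factor), the AP-1 site TGANTCA, the GC box GGGCGG and the CArG box, the site of serum response factor. Of all 32851 promoters of this length 28.3, 7.81, 35.7 and 1.63% held them. Capitals mark the PU.1 core on either strand in Itgam (chr7:128062390-128062689, plus strand) and Itga5 (chr15:103366742-103367041, minus strand), the AP-1 site in Itgax (chr7:128129300-128129599, plus strand) and the CArG box in Vcl (chr14:20929148-20929447, plus strand).
Itgam: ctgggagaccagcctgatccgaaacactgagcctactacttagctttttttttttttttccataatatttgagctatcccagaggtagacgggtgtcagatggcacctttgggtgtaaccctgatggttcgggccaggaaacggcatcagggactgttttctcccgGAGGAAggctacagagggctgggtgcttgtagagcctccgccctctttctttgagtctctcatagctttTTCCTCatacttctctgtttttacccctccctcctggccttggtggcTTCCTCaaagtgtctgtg
Itgax: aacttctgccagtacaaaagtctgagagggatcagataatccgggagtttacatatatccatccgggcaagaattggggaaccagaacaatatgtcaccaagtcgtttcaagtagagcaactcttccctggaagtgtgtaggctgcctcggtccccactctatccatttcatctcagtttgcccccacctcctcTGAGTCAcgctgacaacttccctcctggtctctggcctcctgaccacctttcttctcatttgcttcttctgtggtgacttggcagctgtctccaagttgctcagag
Itga5: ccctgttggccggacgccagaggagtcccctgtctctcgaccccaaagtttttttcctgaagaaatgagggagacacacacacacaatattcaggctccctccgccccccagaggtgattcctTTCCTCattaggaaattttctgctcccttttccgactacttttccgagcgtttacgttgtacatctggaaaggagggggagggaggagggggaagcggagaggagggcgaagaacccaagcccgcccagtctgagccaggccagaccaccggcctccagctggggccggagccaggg
Vcl: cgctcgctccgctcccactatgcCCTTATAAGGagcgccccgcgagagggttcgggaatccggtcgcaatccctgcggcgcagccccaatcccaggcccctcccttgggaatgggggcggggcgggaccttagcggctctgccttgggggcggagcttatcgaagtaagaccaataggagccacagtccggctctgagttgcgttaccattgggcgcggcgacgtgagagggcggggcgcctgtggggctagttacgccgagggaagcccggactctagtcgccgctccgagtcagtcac
Itgam held 3 PU.1 cores, Itga5 held 1, and the windows of Itgax and Vcl held none. Itgax held the AP-1 site and Vcl the CArG box once each, and Itgam, Itga5 and Vcl also held 1, 2 and 4 GC boxes, none overlapping a capitalised match. Parvb, which also fell and had an entry, held 2 GC boxes and none of the other motifs, and is not printed. Such matches describe the letters and are not evidence of binding.

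The mammary set was led by matrix receptors. Itga6, the laminin receptor subunit, had 81.8 and 76.7 CPM in macrophages and 488, 478 and 475 CPM in early lesion cells, and 32.1, 26.2 and 25.5 CPM in macrophages and 583, 616 and 585 CPM in primary tumor cells. Itga3 had 0.756 and 0.728 CPM in macrophages and 347, 290.3 and 289 CPM in early lesion cells (-8.71 ± 0.16), and 4.96, 6.55 and 6.95 CPM in macrophages and 239, 261 and 304 CPM in primary tumor cells (-5.28 ± 0.15). Both were lower in every macrophage library. Itgb4 changed by -7.87 ± 0.28 and -8.87 ± 0.24, Itgb3, which with Itgav binds vitronectin, by -10.28 ± 0.18 and -8.73 ± 0.66, and Itgb6, whose integrin activates latent TGF-β, by -6.60 ± 0.15 and -4.43 ± 0.31. Itgb1 had 486 and 514 CPM in macrophages and 926, 872 and 869 CPM in early lesion cells, and 176, 146 and 148 CPM in macrophages and 1016, 1066 and 1089 CPM in primary tumor cells. Itgav changed by -2.91 ± 0.06 and -2.97 ± 0.18, and Itgb1 by -0.84 ± 0.06 and -2.60 ± 0.11. The collagen receptor subunit Itga2, the RGD receptor subunit Itga8 and Itgb8, another activator of latent TGF-β, were at 0.0236 ± 0.0334, 0.0236 ± 0.0334 and 1.78 ± 1.09 CPM in macrophages and 64.6 ± 11, 49.8 ± 2.93 and 79.2 ± 3.52 CPM in early lesion cells.

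A few subunits were shared. Itgb5, the other vitronectin-binding beta subunit, had 119 and 124 CPM in macrophages and 128, 121 and 118 CPM in early lesion cells (-0.02 ± 0.06, edgeR quasi-likelihood adjusted p = 0.813), libraries that overlapped. In the primary tumor experiment it was lower in macrophages, at 37.8, 46.5 and 51.1 against 214, 221 and 234 CPM (-2.15 ± 0.10). Itga5, the fibronectin receptor subunit, had 80.8 and 85.8 CPM in macrophages and 82.6, 58.0 and 78.4 CPM in early lesion cells (0.18 ± 0.16, adjusted p = 0.332). In the primary tumor experiment Itga5 had 51.0, 49.4 and 48.8 CPM in macrophages and 5.36, 9.15 and 10.9 CPM in tumor cells (2.70 ± 0.22, adjusted p = 1.74e-06), with no overlap. The remaining alpha subunits were low. The collagen receptor subunits Itga1, Itga10 and Itga11, the laminin receptor subunit Itga7, the tenascin receptor subunit Itga9, the platelet subunit Itga2b and Itgae, which binds E-cadherin, had mean levels of 0.0362 to 0.291 CPM per kb in macrophages alone and 0.102 to 2.19 CPM per kb in mammary cells alone. Itga10 shares 33.5% of its exon bases with the gene model Gm42957 on the same strand. Itgb7, the lymphocyte beta subunit, averaged under 0.5 CPM in all 8 groups and had 0 counts in all 6 macrophage libraries of the primary tumor experiment, which allows up to 0.206 CPM in those alone.

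The linkers divided by paralogue. Of the kindlins, Fermt3, the kindlin of blood cells, took 99.4 ± 0.389 and 98.5 ± 0.855% of the summed kindlin level per kb in macrophages. In early lesion cells it took 0.780 ± 0.0847%, with Fermt1, the epithelial kindlin, at 56.5 ± 1.06% and the widely expressed Fermt2 at 42.7 ± 1.00%. In primary tumor cells the order was turned, Fermt2 at 52.8 ± 1.08% and Fermt1 at 46.8 ± 1.13%, and the libraries did not overlap. Fermt1 had 0 counts in the 3 mono-cultured macrophage libraries of the primary tumor experiment, at least 563-fold lower than in tumor cells. Of the parvins, which join ILK to actin, Parvg and Parvb took 79.9 ± 0.336 and 19.5 ± 0.212% in macrophages of the early lesion experiment, while Parva took 96.7 ± 0.187% in early lesion cells and 99.6 ± 0.0680% in primary tumor cells. Parvg had 222 and 237 CPM in macrophages and 0.0502, 0.0394 and 0.0277 CPM in early lesion cells, a change of 12.37 ± 0.12, the largest upward change of the members in that comparison. Its level in early lesion cells rests on 5 counts in all, so the size of the change and its rank are uncertain.

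Talin and FAK family members were shared more evenly. Tln1 took over 90% of the talin level per kb in each mono-culture, the lowest share being 92.1 ± 0.349% in early lesion cells. PYK2 (Ptk2b) took 91.4 ± 0.602 and 84.8 ± 2.82% of the FAK and PYK2 level in macrophages, 54.2 ± 0.293% in early lesion cells and 46.0 ± 2.56% in primary tumor cells. FAK itself (Ptk2) was lower in macrophages, by -1.74 ± 0.07 and -1.01 ± 0.12, as was vinculin (Vcl), by -3.12 ± 0.09 and -1.93 ± 0.12. ILK, PINCH1 (Lims1) and paxillin (Pxn) differed by less than 1 on the log2 scale: Ilk changed by 0.22 ± 0.05 and 0.65 ± 0.09, Lims1 by -0.08 ± 0.06 and 0.49 ± 0.09, and Pxn by -0.24 ± 0.05 and 0.19 ± 0.08. Pxn, called in opposite directions, had 119 and 124 CPM in macrophages and 148, 140.3 and 141 CPM in early lesion cells, and 177, 187 and 184 CPM in macrophages and 169.9, 181 and 183 CPM in primary tumor cells. The Pxn call in the primary tumor experiment (adjusted p = 0.0462) was lost in most other settings and its value was -0.01 with no filter, and the Ilk and Tln1 calls against early lesion cells were lost with no filter and with the block, that of Tln1 also with all 4 groups and without any of 3 libraries. Ilk shares 76.7% of its exon bases with Taf10 on the other strand and Vcl 25.5% with Ap3m1, and the sources used here give no strand setting, so their counts are uncertain.

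**Figure D2:**
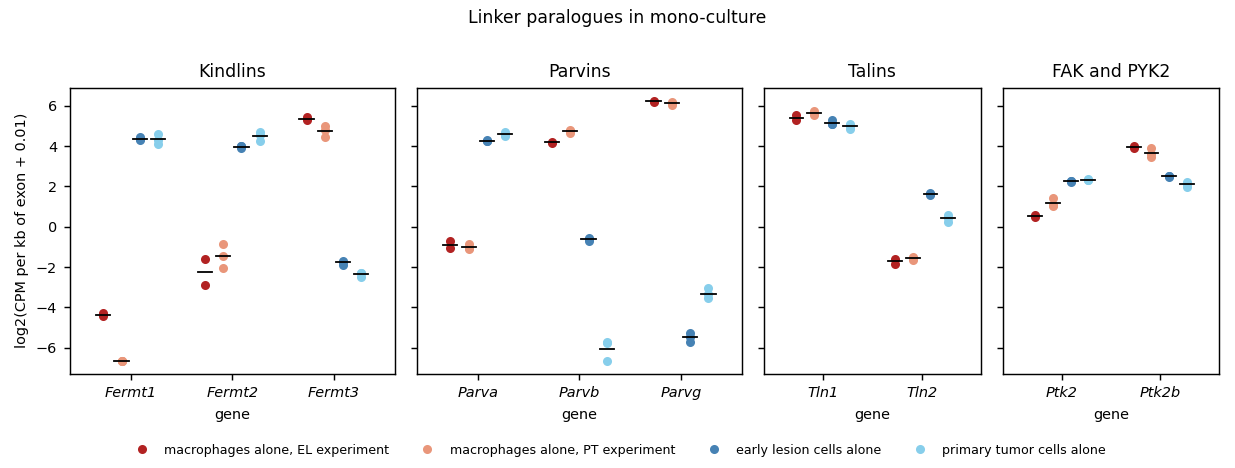
Level of the kindlins, parvins, talins, FAK (Ptk2) and PYK2 (Ptk2b), as log2(CPM per kb of exon + 0.01), in mono-cultured macrophages (dark and light red) and mammary cells (dark and light blue); each point is a library and each bar a group mean. Fermt3, Parvb and Parvg lie high in macrophages, and Fermt1, Fermt2 and Parva high in mammary cells, while the Tln1 points of all 4 cultures lie close together near the top.

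The leukocyte integrin genes were lower in macrophages co-cultured with primary tumor cells than in macrophages alone. Of 26 members tested 11 changed, 3 higher and 8 lower, which is 42.3%, beside 30.6% of all 11121 genes tested (15.8% higher and 14.8% lower), and the members' median was 0.14 against 0.00 over all genes, shares that were not tested against each other. Itgam had 10.2, 14.9 and 18.6 CPM in macrophages with tumor cells, against 89.5, 86.0 and 69.1 CPM in those alone (-2.54 ± 0.20, edgeR quasi-likelihood adjusted p = 1.23e-06). Every co-cultured library lay far below every library alone. Itgax had 52.7, 81.0 and 74.6 CPM in co-culture, against 214, 182 and 181 CPM alone (-1.52 ± 0.16, adjusted p = 2.97e-05). Itgad had 0.972, 3.86 and 3.40 CPM in co-culture, against 8.03, 13.3 and 11.5 CPM alone (-2.05 ± 0.40, adjusted p = 0.00144). Neither gene had overlapping groups, although Itgad rests on few counts and shares exon bases with 4 other gene models. Their beta partner Itgb2 had 330.1, 416 and 405 CPM in co-culture, against 643, 554 and 515 CPM alone (-0.62 ± 0.12, adjusted p = 0.00191). Itgal, the other partner, had 42.5, 60.9 and 54.2 CPM in co-culture and 59.7, 65.5 and 60.5 CPM alone (-0.28 ± 0.14, adjusted p = 0.153), groups that overlapped. Per kb of exon, Itgam took 6.84 ± 1.28% of the alpha level in co-culture and 18.3 ± 1.47% alone, while Itgal took 19.0 ± 0.620% in co-culture and 10.7 ± 1.02% alone.

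Itga5 and 3 of the 13 linkers tested, Ptk2, Vcl and Parvb, also fell, while 2 linkers rose and the linkers' median was 0.18. Itga5 had 24.3, 24.8 and 24.6 CPM in co-culture, against 51.0, 49.4 and 48.8 CPM alone (-1.06 ± 0.14, edgeR quasi-likelihood adjusted p = 5.80e-05). FAK (Ptk2) had 8.02, 7.99 and 8.64 CPM in co-culture, against 23.6, 31.6 and 25.2 CPM alone (-1.75 ± 0.20, adjusted p = 1.78e-05). Vcl had 23.8, 17.6 and 21.5 CPM in co-culture, against 36.8, 45.5 and 39.6 CPM alone (-1.0 ± 0.16, adjusted p = 0.000337). In all 3 genes the groups stood apart, and the fall of Ptk2 and Vcl ran against their higher level in the partner tumor cells, at 64.7 ± 1.38 and 142 ± 8.31 CPM. Parvb had 85.6, 89.9 and 94.0 CPM in co-culture, against 112, 123 and 119 CPM alone (-0.44 ± 0.10, adjusted p = 0.00358).

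The linkers that rose were Fermt3 and PYK2. Fermt3 had 236, 229 and 222 CPM in co-culture, against 127, 162 and 183 CPM alone (0.50 ± 0.11, edgeR quasi-likelihood adjusted p = 0.00374). PYK2 (Ptk2b) had 146, 129.6 and 144 CPM in co-culture, against 81.7, 90.1 and 112 CPM alone (0.52 ± 0.11, adjusted p = 0.00310). Both were higher in all 3 co-cultured libraries, and PYK2 took 96.4 ± 0.206% of the FAK and PYK2 level per kb in co-culture, against 84.8 ± 2.82% alone. Itgb4 rose as a carry-over candidate, with 3.16, 7.17 and 16.0 CPM in co-culture, against 2.12, 0.794 and 0.939 CPM alone (2.73 ± 0.63, adjusted p = 0.00695). Its rise was 1.17% of the level in the partner tumor cells, where the 10 epithelial markers that are candidates rose by a median of 0.903% (0.501 to 9.52%) of theirs, and the part of tumor cell RNA in it was not tested.

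The other 15 members tested did not pass, among them Itga6 (0.39 ± 0.16), Itgav (-0.51 ± 0.26), Itga4 (0.39 ± 0.26), Itgb1 (-0.24 ± 0.13), Itgb5 (0.33 ± 0.20) and Tln1 (0.18 ± 0.08). The 14 members not tested for low counts were Itga1, Itga2, Itga7, Itga8, Itga9, Itga10, Itga11, Itga2b, Itgae, Itgb3, Itgb6, Itgb7, Itgb8 and Fermt1. Fermt1 had 1.70, 1.38 and 2.09 CPM in co-culture and 0 counts alone, at least 8.42-fold higher than the floor of 3 counts over that group. It too was a carry-over candidate, with a rise of 1.80% of the level in the partner tumor cells, and the part of tumor cell RNA in it was not tested. The same holds for Itgb8, with 17 counts in co-culture and 1 alone, and Itga2, with 13 and 2, which were candidates as well. No call of the 11 was lost under any other setting or with any library left out. Mitochondrially encoded genes took 78.6, 74.9 and 76.5% of the counts in the co-cultured libraries, against 65.7, 72.7 and 69.6% in those alone, shares that did not overlap. All 11 calls held in the fit without those genes and Grip2, and what else goes with that share was not tested.

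In macrophages co-cultured with early lesion cells, Itgax and FAK were lower and Itga4 higher than in macrophages alone. Of 36 members tested 8 changed, 5 higher and 3 lower, which is 22.2%, beside 18.3% of all 14032 genes tested (9.11% higher and 9.19% lower), and the members' median was 0.20 against 0.00. Itgax had 268 and 252 CPM in macrophages with early lesion cells, against 413 and 425 CPM in those alone (-0.72 ± 0.06, edgeR quasi-likelihood adjusted p = 1.50e-05). FAK (Ptk2) had 8.38 and 8.50 CPM in co-culture, against 17.5 and 16.6 CPM alone (-1.05 ± 0.11, adjusted p = 5.54e-05). Both were lower in each co-cultured library, and both calls held in every other setting. Vcl had 21.5 and 19.1 CPM in co-culture, against 23.5 and 26.9 CPM alone (-0.35 ± 0.10, adjusted p = 0.0327), a call lost without either replicate 2, alone (-0.26) or co-cultured (-0.27), with the factors of all 22 libraries, with DESeq2 and with all 4 groups. The other leukocyte integrin genes did not pass: Itgam had 254 and 241 CPM in co-culture and 249 and 241 CPM alone (-0.02 ± 0.06, adjusted p = 0.872), Itgb2 changed by 0.07 ± 0.06, Itgal by 0.13 ± 0.08 and Itgad by -0.34 ± 0.11. With no filter Itgad passed as lower (-0.35, edgeR quasi-likelihood adjusted p = 0.00528).

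Of the 5 members that rose, Itga4 is one that the partner cells express at a far lower level. It had 47.6 and 39.6 CPM in co-culture, against 26.7 and 26.1 CPM alone (0.69 ± 0.10, edgeR quasi-likelihood adjusted p = 0.000445), and 3.16 ± 0.271 CPM in the partner cells. Its call held in every other setting; Itga4 shares 8.04% of its exon bases with Cerkl on the other strand. Itgb5 had 147 and 142 CPM in co-culture, against 119 and 124 CPM alone (0.21 ± 0.06, adjusted p = 0.0390), a call lost with any of the 4 libraries left out. Itgav had 61.8 and 57.6 CPM in co-culture, against 47.0 and 45.7 CPM alone (0.33 ± 0.07, adjusted p = 0.00931, and 0.0572 without co-cultured replicate 1). The groups of these 3 genes did not overlap. Itgb3 had 2.77 and 2.40 CPM in co-culture, against 0.189 and 0.208 CPM alone (3.63 ± 0.42, adjusted p = 0.000117). Itga3 had 2.43 and 2.44 CPM in co-culture, against 0.756 and 0.728 CPM alone (1.68 ± 0.33, adjusted p = 0.00472).

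Itgav, Itgb3 and Itga3 were carry-over candidates. The rise of Itgb3 and of Itga3 was 0.717 and 0.666% of their level in the partner early lesion cells, and that of Itgav was 3.72%. The 9 epithelial markers that are candidates rose by 0.545 to 0.970% of theirs. The 7 candidates among markers of basal mammary cells rose by a median of 1.21% (0.640 to 5.81%). The part of early lesion cell RNA in the 3 rises was not tested. Itgb4, also a candidate, had 8.76 and 5.43 CPM in co-culture and 3.64 and 1.46 CPM alone (1.48 ± 0.48, adjusted p = 0.103). It passed as higher with no filter (1.72e-08), with DESeq2 (0.00182), with the block (3.44e-05), with all 4 groups (0.0195) and with each library left out (7.70e-14 to 0.00814, changes of 0.91 to 2.25). The 4 members not tested, Itga2, Itga8, Itga11 and Itgb7, were under 1 CPM in each of these 4 libraries. Among them Itga2 had 30 counts in co-culture and 1 alone, and Itga8 had 19 and 1. Both were carry-over candidates, and the part of early lesion cell RNA in them was not tested. Of the linkers that did not pass, Tln1 was at 0.32 ± 0.11, Fermt3 at 0.22 ± 0.08 and Ptk2b at 0.18 ± 0.07. With no filter Tln1 and Fermt3 passed as higher (edgeR quasi-likelihood adjusted p = 0.000198 and 0.0212), and Tln1 also passed with DESeq2 (0.01).

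**Figure D3:**
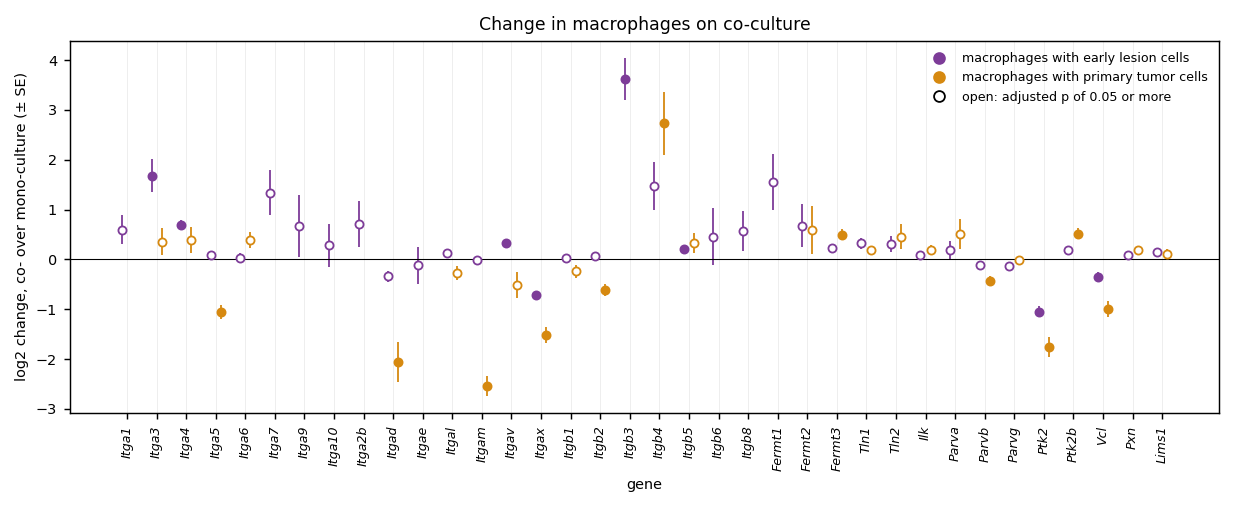
Log2 change (± SE) of the members tested in macrophages co-cultured with early lesion cells (purple, 2 against 2 libraries) and with primary tumor cells (orange, 3 against 3), each over the same experiment's macrophages alone; filled points passed the threshold. Itgam, Itgad, Itga5 and Itgb2 are filled below 0 in orange only, while Itgax, Ptk2 and Vcl are filled below 0 in both.

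The difference between the macrophage responses was tested as an interaction, early lesion minus primary tumor experiment. Of 34 members tested 6 differed, each with a positive difference, that is, a response less far below 0 or further above it in the early lesion experiment, which is 17.6%, beside 10.9% of all 13727 genes tested (5.25% higher and 5.70% lower). Itgam differed by 2.53 ± 0.22 (edgeR quasi-likelihood adjusted p = 2.22e-05), Itga5 by 1.17 ± 0.15 (adjusted p = 0.000176) and Itgad by 1.75 ± 0.40 (adjusted p = 0.0107). Itgax, Itgb2 and Vcl differed by 0.81 ± 0.20, 0.71 ± 0.18 and 0.67 ± 0.20, with adjusted p of 0.0187, 0.0176 and 0.0432. Only the calls of Itgam and Itga5 held with each library left out; Itgad lost its call without either replicate 1 of the early lesion experiment, alone or co-cultured (0.0595 and 0.0591), and Itgax, Itgb2 and Vcl without 4, 3 and 7 single libraries. For Ptk2, lower in both experiments, the difference did not pass (0.72 ± 0.23, adjusted p = 0.0607). Partner cells, experiment and the mitochondrial share of the libraries go together here and cannot be told apart. The mono-cultured macrophages of the experiments also stood apart: Itgam had 249 and 241 CPM in the early lesion experiment and 89.5, 86.0 and 69.1 CPM in the primary tumor experiment.

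**Figure D4:**
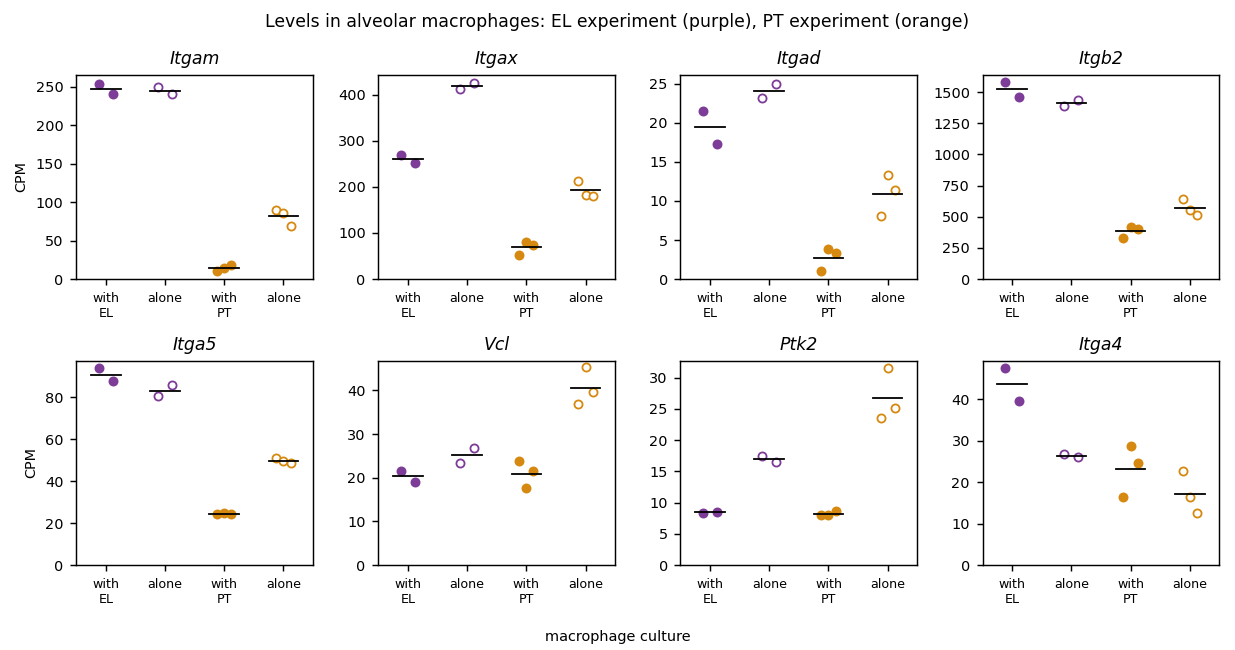
CPM of 8 genes in the 10 macrophage libraries, from 0 up, with the early lesion experiment in purple and primary tumor experiment in orange; filled points are co-cultured libraries, open points macrophages alone, and bars group means. In the primary tumor experiment the filled points of Itgam, Itgax, Itgad, Itgb2, Itga5, Vcl and Ptk2 lie below the open ones without overlap, and in the early lesion experiment Itgam points overlap.

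In the mammary cells no member passed in either co-culture comparison. In primary tumor cells 0 of 36 members tested were called by edgeR's quasi-likelihood test, beside 1.67% of all 13506 genes (1.01% lower), with 6 members at an unadjusted p under 0.05, and DESeq2 called 2. The members' median was 0.00, as over all genes. Itga2 had 7.97, 8.94 and 5.27 CPM in tumor cells with macrophages and 11.9, 16.3 and 15.1 CPM in those alone (-0.96 ± 0.21, adjusted p = 0.0641), without overlap. Itgav had 296, 263 and 241 CPM in co-culture and 392, 358 and 308 CPM alone (-0.40 ± 0.11, adjusted p = 0.108), and Itga7 had 4.44, 4.22 and 5.23 CPM in co-culture and 2.99, 2.24 and 3.40 CPM alone (0.69 ± 0.20, adjusted p = 0.122).

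Tumor cell libraries of the same replicate number deviated together (residual correlations 0.461, 0.350 and 0.468 over genes), although the labels state no pairing. In the fit blocked on that number 12 members passed, 3 higher and 9 lower, beside 21% of all genes (10.6% higher and 10.4% lower, 2841 in all). Itgb3 had 192, 154 and 77.7 CPM in co-cultured replicates 1, 2 and 3, against 367, 272 and 140.1 CPM in the same replicates alone, and changed by -0.86 with the block (edgeR quasi-likelihood adjusted p = 4.28e-09). The groups overlapped, but each co-cultured library was lower than its own number alone. Itgav (-0.40, 1.15e-05), Itgb8 (-0.36, 0.000153), Vcl (-0.26, 0.00127), Itga2 (-0.96, 0.00228), Fermt1 (-0.26, 0.00243), Tln2 (-0.34, 0.00761), Itgb6 (-0.26, 0.0412) and Itgb5 (-0.14, 0.0471) were also lower with the block (adjusted p in second place). Itga7 (0.69, 0.00720), Fermt2 (0.19, 0.00783) and Itga3 (0.16, 0.0355) were higher with the block. The laminin receptor subunits Itga6 (-0.01, 0.930) and Itgb4 (0.01, 0.953) did not pass with it.

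In early lesion cells 0 of 36 members were called, beside 0.51% of all 14891 genes, with 7 at an unadjusted p under 0.05 and 1 call by DESeq2, Itgb5. The members' median was 0.04 against 0.00. Itgb5 had 161, 140.3 and 143 CPM in co-culture and 128, 121 and 118 CPM alone (0.28 ± 0.06, edgeR quasi-likelihood adjusted p = 0.135), without overlap. Tln2 had 62.8, 71.0 and 65.1 CPM in co-culture and 58.0, 54.8 and 56.4 CPM alone (0.23 ± 0.06, adjusted p = 0.150). Co-cultured replicate 1 stood apart in several members: it had 110.4 CPM of Itga5 against 43.3 and 57.9 CPM in the other 2, 23.0 CPM of Itga1 against 8.97 and 11.1, and 221 CPM of Itgb3 against 413 and 364. The same library had the highest fibroblast marker sum, 3020 CPM against 994 and 1415 in the other 2, and the part of those cells was not tested. Without it 8 members passed, 6 higher and 2 lower, beside 10.6% of all genes (4.75% higher and 5.9% lower, 1612 in all): Itgb3 (0.63), Itga8 (0.45), Tln2 (0.27), Itgb8 (0.25), Itgb5 (0.21) and Itga6 (0.20) higher, Itgb6 (-0.39) and Itga3 (-0.36) lower.

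**Figure D5:**
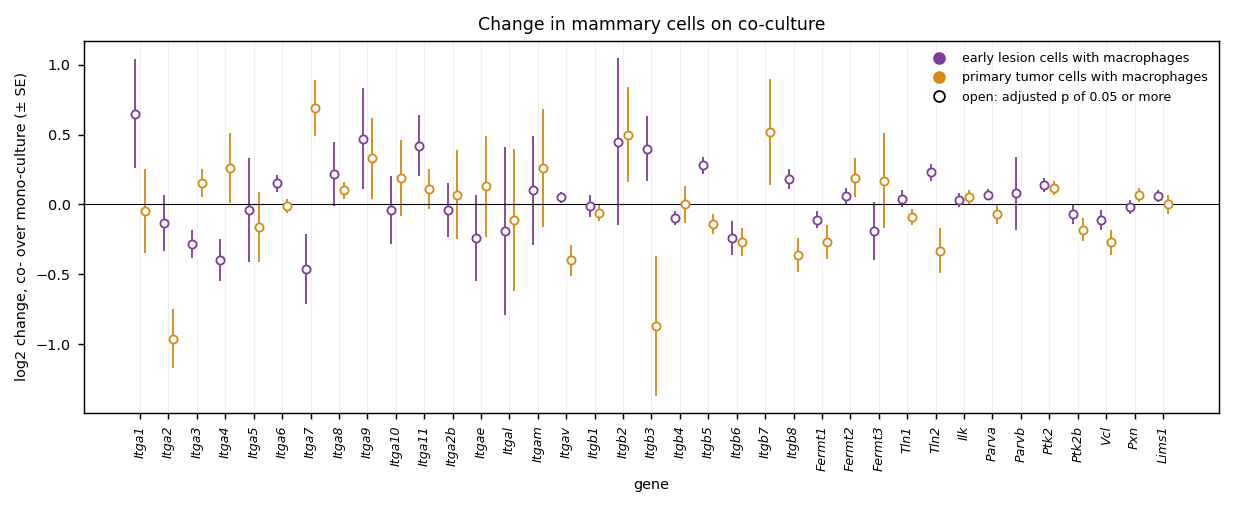
Log2 change (± SE) of the members tested in early lesion cells (purple) and primary tumor cells (orange) co-cultured with macrophages, each over the same cells alone and without the replicate block, 3 against 3 libraries. All points are open, that is, at an adjusted p of 0.05 or more, and most lie within 0.5 of 0.

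The difference between these mammary responses passed for 0 of 37 members by edgeR's quasi-likelihood test, beside 0.137% of all 15284 genes, with 8 members at an unadjusted p under 0.05 and 4 by DESeq2. With the replicate block 8 passed, beside 7.39% of all genes (3.46% higher and 3.93% lower), the 3 smallest adjusted p being those of Itgav at 0.45 (0.00139), Itgb8 at 0.53 (0.00207) and Itga7 at -1.19 (0.00263). The leukocyte integrin genes stayed low in the sorted mammary cells. In primary tumor cells Itgax had 0.147, 0.152 and 0.0443 CPM in co-culture and 0 counts alone, Itgam had 0.514, 0.863 and 0.354 CPM in co-culture and 0.383, 0.511 and 0.541 CPM alone, and Itgb2 had 0.992, 1.83 and 2.13 CPM in co-culture and 1.38, 1.02 and 1.08 CPM alone.

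Early lesion and primary tumor cells in mono-culture differed in 25 of 36 members tested, 15 higher and 10 lower in early lesion cells, which is 69.4%, beside 68.5% of all 14682 genes (34.7% higher and 33.8% lower), with a median of 0.03 against 0.01. Stage and experiment go together here and cannot be told apart. Parvb had 2.96, 2.62 and 2.91 CPM in early lesion cells and 0.0383, 0.0393 and 0 CPM in primary tumor cells, from 356 against 2 counts, 109 times as much (95% interval 29.9 to 901, for counting error alone). Itga5 had 82.6, 58.0 and 78.4 CPM in early lesion cells, against 5.36, 9.15 and 10.9 CPM in primary tumor cells (3.14 ± 0.27, edgeR quasi-likelihood adjusted p = 0.000103). The collagen receptor subunits Itga2 and Itga1 were higher in early lesion cells by 2.19 ± 0.16 and 2.31 ± 0.22, the laminin receptor subunit Itga7 by 2.65 ± 0.18, Tln2 by 1.24 ± 0.09 and Itgb6 by 0.72 ± 0.08. Itgae, Itga4, Itga2b, Itga9, Fermt3, Ptk2b, Vcl and Tln1 were higher by 0.21 to 1.82. Of these calls Fermt3 was lost with no filter, with the block and with any 1 library left out (adjusted p 0.0512 to 0.0774), Itga9 without any of 4 libraries, and Tln1 without any of 4 and with the factors of all 22 libraries.

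Itga2, Itga7, Tln2 and Itgb6 were also lower in macrophages than in either mammary culture. Itga2 had 76.7, 55.5 and 61.5 CPM in early lesion cells, against 11.9, 16.3 and 15.1 CPM in primary tumor cells. Itga7 had 19.4, 14.6 and 19.2 CPM in early lesion cells, against 2.99, 2.24 and 3.40 CPM in primary tumor cells. Tln2, the talin of muscle and brain, had 58.0, 54.8 and 56.4 CPM in early lesion cells, against 24.9, 27.3 and 21.2 CPM in primary tumor cells. All 3 stood apart between the cultures. Itgb6 had 29.7, 30.3 and 27.8 CPM in early lesion cells, against 16.6, 17.6 and 20.1 CPM in primary tumor cells. Of the low alpha subunits, Itga1 had 11.5, 7.64 and 8.41 CPM in early lesion cells, against 2.18, 2.00 and 1.51 CPM in primary tumor cells. The values of Itga9 were 2.71, 1.79 and 3.74 CPM in early lesion cells and 1.38, 1.57 and 1.51 CPM in primary tumor cells, and those of Itga2b 2.79, 2.19 and 2.49 CPM in early lesion cells and 1.53, 1.38 and 1.04 CPM in primary tumor cells. None of these subunits overlapped between the cultures.

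Lower in early lesion cells was Itga8, with 46.9, 52.8 and 49.9 CPM, against 142, 129 and 127 CPM in primary tumor cells (-1.38 ± 0.07, edgeR quasi-likelihood adjusted p = 2.37e-06). Itgb5 had 128, 121 and 118 CPM in early lesion cells, against 214, 221 and 234 CPM in primary tumor cells (-0.83 ± 0.05, adjusted p = 7.94e-06). The libraries of both genes stood apart. Relative to the macrophages alone of each experiment, which gives the difference of the cell type differences, Itga8 was 2.93 higher, and Fermt2 (0.34), Ilk (0.35), Ptk2 (0.65), Pxn (0.35) and Lims1 (0.49) also turned to the higher side. In that setting Itga8 (adjusted p = 0.0676, from 1 count over the macrophages of the early lesion experiment and 7 over those of the primary tumor experiment) and Fermt2 (0.585) did not pass. Fermt2, Lims1, Parva, Itga6, Pxn, Itgb1 and Ilk were lower by small amounts, -0.51 for Fermt2 to -0.14 for Ilk, and Itgal by -1.40 ± 0.52 from under 2 CPM in every library. The Itgal call was lost with DESeq2, with the block and with any of 5 of the 6 libraries left out (-0.79 without primary tumor replicate 1), and the Ilk call without any of 4. Among the abundant members Itga3, Itgav, Itgb3, Itgb4 and Ptk2 did not pass, at 0.24 ± 0.11, 0.00 ± 0.08, -0.02 ± 0.34, -0.17 ± 0.11 and -0.05 ± 0.05. Itga3 passed as higher with DESeq2 (adjusted p = 0.0457). By edgeR's quasi-likelihood test it passed without primary tumor replicate 3 (0.33, adjusted p = 0.0156) and relative to macrophages alone (3.35, adjusted p = 4.39e-07). Itgb4 passed as lower by that test without primary tumor replicate 1 (-0.27, adjusted p = 0.0264). Fibroblast markers were summed at 928 to 1808 CPM in the early lesion libraries and 297 to 527 CPM in the primary tumor libraries, and their part in these differences was not tested.

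The ligands of integrins were followed as a list of 40 genes, chosen with earlier results known. In macrophages with primary tumor cells 6 rose and 5 fell of 26 tested, which is 42.3% beside 30.6% of all genes (median 0.23). With early lesion cells 14 rose and 6 fell of 34, which is 58.8% beside 18.3% (median 0.69). Many ligands were far higher in the partner: their median in macrophages alone was -4.69 against early lesion cells alone and -3.91 against primary tumor cells alone. The carry-over candidates among the rises were not counted, and the part of partner RNA in them was not tested. Icam1, the counter-receptor of LFA-1, fell in both co-cultures, at -1.57 ± 0.19 in the primary tumor experiment and -0.44 ± 0.06 in the early lesion experiment. With primary tumor cells Nov (CCN3), a matricellular protein gene, fell to 776 ± 82.0 CPM, against 3114 ± 691 CPM alone (-2.06 ± 0.17, n = 3 each), and F11r, junctional adhesion molecule A, rose by 1.25 ± 0.17. Osteopontin, Spp1, rose by 2.20 ± 0.19 as a carry-over candidate. With early lesion cells Cdh1 (1.35 ± 0.08) and thrombospondin 1, Thbs1 (3.53 ± 0.21, a candidate), rose and von Willebrand factor, Vwf, fell (-0.62 ± 0.07). In early lesion cells Lama4 (0.36 ± 0.04) and Edil3 (0.42 ± 0.06) were higher in co-culture, the 2 calls of 35 tested (5.71%, beside 0.51% of all genes). In primary tumor cells tenascin C, Tnc (-0.99 ± 0.11), and Edil3, a ligand of the Itgav and Itgb3 receptor (-0.55 ± 0.10), were lower, the 2 calls of 32 tested (6.25%, beside 1.67%). The difference of the mammary responses was called for Edil3 (0.96 ± 0.13, edgeR quasi-likelihood adjusted p = 0.0131), and that of the macrophage responses for 7 ligands of 34 (20.6%, beside 10.9%), Thbs1 (3.67 ± 0.37) and Ctgf (4.08 ± 0.75) among them.

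Between mono-cultures, macrophages were higher than early lesion cells in 6 and lower in 29 of 36 ligands tested, which is 97.2% beside 77.8% of all genes. They were higher than primary tumor cells in 6 and lower in 28 of 34, which is 100% beside 78.9%. Against early lesion cells Tgfb1, whose latent form binds Itgav integrins, was higher (1.90 ± 0.05), as was Icam1 (2.00 ± 0.08), and Tgfb3 (-11.12 ± 0.12) and Edil3 (-7.44 ± 0.13) were lower. Against primary tumor cells Vwf (10.32 ± 0.17) and Nov were higher, Nov at 3114 ± 691 CPM in macrophages and 0.0128 ± 0.0221 CPM in tumor cells, and nephronectin, Npnt, a ligand of the Itga8 receptor (-9.55 ± 0.22), and the laminin chain gene Lama5 (-6.58 ± 0.19) were lower. Early lesion cells were higher than primary tumor cells in 20 and lower in 9 of 34 ligands (85.3%, beside 68.5%), with Lama5 (1.25 ± 0.09) and Tnc (2.31 ± 0.15) higher and Npnt (-1.94 ± 0.12) and Fbln5 (-1.42 ± 0.14) lower. Npnt and Itga8, ligand and receptor, were both lower in early lesion cells, Npnt at 131 ± 23.2 CPM against 516 ± 21.8 CPM (SD, n = 3 each).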

How the data were processed

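Poly(A)-selected RNA of sorted mouse cells was sequenced in 22 libraries of 8 groups. The authors deposited raw read counts per gene symbol, 1 table for each experiment. Base calls were made with bcl2fastq 2.17 and the build was mm10, per the submitters' processing notes. For the aligner, the counter, the annotation and the strand, a name was not given in the sources used here, so genes with overlapping exons are uncertain. Among the symbols 27 had been turned into dates, none of them a member.

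The deposited counts were tested with edgeR 4.0.16 (R 4.3.3, limma 3.58.1): filterByExpr, TMM factors, robust quasi-likelihood fit, two-sided tests and Benjamini-Hochberg adjustment over all genes tested, at 0.05, with the libraries of the groups compared. The groups follow the labels, and every member was to be named. Values per library were given for members called in a co-culture comparison, for the highest alpha and beta subunits per kb and for members called in opposite directions. From the lists of 40 integrin ligands and 64 other adhesome genes, the 2 with the smallest adjusted p in each direction were named. A gene named by that rule is not reported here. Members and lists were chosen with earlier results of these data known. CPM values use 1 set of TMM factors for all 22 libraries, and exon lengths and coordinates come from GENCODE vM21 for mm10. A group at 0 counts was set to a floor of 3 counts over the group, and counting intervals (95%, exact) and floors cover counting error only. The procedure was tested on simulated counts drawn independently for each library, which hold no replicate pairing and no outlying library.

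Alternatives were RLE factors, TMM factors of all 22 libraries, no filter, DESeq2 1.42.0, leaving out the 13 mitochondrially encoded genes and Grip2, the replicate block, all 4 groups of an experiment, macrophages alone as the reference for early lesion against primary tumor cells, and leaving out each library. Same-numbered primary tumor libraries deviated together (residual correlations 0.461, 0.350 and 0.468 over genes), so blocked values stand beside those results. The labels state no pairing, and it was inferred from these same counts. Same-numbered early lesion libraries gave 0.287, 0.227 and 0.0612, and the lowest values in macrophages were -0.0801 and -0.0902.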

Additional observations from a re-analysis of the deposited data

Results flagged for a closer look

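The macrophage response to co-culture differed between the experiments for 6 members, by the interaction test of edgeR's quasi-likelihood fit (early lesion minus primary tumor experiment). The log2 difference was 2.53 for Itgam, 1.75 for Itgad, 1.17 for Itga5, 0.81 for Itgax, 0.71 for Itgb2 and 0.67 for Vcl. In the primary tumor experiment each of the 6 genes was lower in all 3 co-cultured libraries than in all 3 libraries alone. The adjusted p-values of Itgax, Itgb2 and Vcl (0.0187, 0.0176 and 0.0432) were nearest to the threshold. The mitochondrial share of counts goes with the experiment and, within the primary tumor experiment, with co-culture, at 78.6, 74.9 and 76.5% in the co-cultured macrophages and 65.7, 72.7 and 69.6% in those alone. Its part in these differences was not tested beyond a fit without those genes.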

How the results depend on the processing

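With the replicate number as a block, 12 members were called in primary tumor cells (0 without it) and 2841 genes (225 without it). The block gave 8 members and 1129 genes for the difference of the mammary responses, which holds primary tumor and early lesion libraries. It gave 2 members and 485 genes in early lesion cells (Itga3 and Itgb5), and 3 members for the difference of the macrophage responses. In early lesion cells 2 of 3 co-cultured libraries correlated best with their own number. DESeq2 called 1 member and 502 genes in early lesion cells, 2 members and 781 genes in primary tumor cells, and 4 members and 329 genes for the difference of the mammary responses. With no filter on low counts these numbers were 174 genes in early lesion cells, 1 member and 466 genes in primary tumor cells, 35 genes for the mammary difference and 15 members for macrophages with early lesion cells. Fitting all 4 groups gave 146 genes in early lesion cells.

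With each library left out in turn, 0 to 8 members and 0 to 1612 genes passed in early lesion cells, the highest of both without co-cultured replicate 1. The ranges were 4 to 162 genes in primary tumor cells, 8 to 14 members in macrophages with early lesion cells, 9 to 184 genes for the mammary difference, and 2 to 9 members and 561 to 1890 genes for the macrophage difference. Among single-gene results called in the main fit or in the alternative, the sign turned in 7. It turned for Pxn between macrophages and primary tumor cells with no filter (-0.01). Relative to macrophages alone, it turned for Itga8 (2.93), Fermt2 (0.34), Ilk (0.35), Ptk2 (0.65), Pxn (0.35) and Lims1 (0.49) between early lesion and primary tumor cells. The cause was not tested. Of the other single-gene results under an alternative, 4141 kept their side of the threshold and, where called, their direction. A further 95 gained a call and 83 lost one. Counts of calls were taken as moved where they changed by more than 1.5 times. In the macrophages of the primary tumor experiment, where mitochondrially encoded genes took most counts, 14 members had too few counts to be tested.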

Other observations

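The other genes of the adhesion machinery were followed as a list of 64 adhesome genes, chosen with earlier results known. In macrophages with primary tumor cells 17 rose and 13 fell of 58 tested, which is 51.7% beside 30.6% of all genes, and the median was 0.08. Cd47, a surface protein that binds integrins and thrombospondin, rose to 1117 ± 53.9 CPM in co-culture, against 484 ± 81.8 CPM alone, and Kank2, a talin-binding protein, rose by 1.21 ± 0.19 on the log2 scale. Tns3, a tensin that binds the beta tail, fell to 59.1 ± 8.94 CPM in co-culture, against 164 ± 13.1 CPM alone, and Dst, a linker of the cytoskeleton, to 184 ± 27.2 CPM, against 500.2 ± 69.9 CPM alone (SD, n = 3 each). With early lesion cells 13 rose and 6 fell of 64, which is 29.7% beside 18.3%, with Cd47 (0.57 ± 0.06) and Rasgrp2 (1.12 ± 0.13), an exchange factor for RAP1, higher and the tetraspanin Cd82 (-0.62 ± 0.06) and Tns3 (-0.75 ± 0.09) lower. Tns3 was a carry-over candidate there and fell. The macrophage responses differed for 6 of 63, which is 9.52% beside 10.9% of all genes, Plec (1.20 ± 0.19) and Dst (1.41 ± 0.21) toward the early lesion experiment and Kank2 (-0.91 ± 0.21) toward the primary tumor experiment. In the mammary cells edgeR's quasi-likelihood test called 0 of 63 in early lesion and 0 of 62 in primary tumor co-culture.

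Between mono-cultures, macrophages were higher than early lesion cells in 32 and lower in 26 of 64, which is 90.6% beside 77.8% of all genes, with the kinase Syk (8.55 ± 0.08) and Rac2 (8.66 ± 0.10) higher and the scaffold Bcar1 (-6.81 ± 0.10) and the kinase Src (-3.96 ± 0.07) lower. Against primary tumor cells 31 were higher and 21 lower of 64, which is 81.2% beside 78.9%, with Tns1 (8.10 ± 0.12) and Apbb1ip (RIAM, 8.0 ± 0.12) higher and Src (-6.01 ± 0.19) lower. Early lesion cells were higher than primary tumor cells in 23 and lower in 28 of 63 (81.0%, beside 68.5%), with Tns4 (3.19 ± 0.06) and Fyb (2.69 ± 0.17) higher and Cdc42 (-0.74 ± 0.06) and the tetraspanin Cd151 (-0.56 ± 0.04) lower.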
